A study of Homo sapiens with 12 samples.

Results

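Alpha and beta tubulins are the subunits of microtubules, and 10 of their human genes are described here, the beta genes TUBB, TUBB2A, TUBB2B, TUBB3, TUBB4B and TUBB6 and the alpha genes TUBA1A, TUBA1B, TUBA1C and TUBA4A. They were found by matching the symbols to the gene identifiers of the count files, and all 10 were found among the 60675 genes listed in each file. The genes were picked because TUBB had been seen to be higher with namoline and TUBA4A with TCE-5002 in C4-2 cells, so the values in those comparisons are given as a description and without a test. RNA was sequenced in 12 libraries, 6 groups of 2 biological replicates, from prostate cancer cells grown with the synthetic androgen R1881 at 1 nM for 72 h in medium with hormone-depleted serum. LNCaP:C42 cells (C4-2 below) are a castration-resistant derivative of the androgen-dependent LNCaP line. They received R1881 alone, R1881 with the KDM1A inhibitor namoline at 50 µM, R1881 with TCE-5002, or R1881 with both inhibitors (combination). The study calls TCE-5002 a selective inhibitor of KDM7A and names KDM7B (PHF8) and KDM2A as further targets. By its methods, R1881 alone included the DMSO vehicle. Cells labelled LNCaP received R1881 alone or the combination. TCE-5002 was at 100 µM by the series text, but a lower dose stands in the methods of the study, and which of them applied to these libraries is not known. In bulk RNA, fewer cells of a kind and less RNA per cell cannot be told apart.

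Library totals ran from 14791602 to 20690819 gene counts, and the log2 levels of both replicates in a group had a Pearson r of 0.987 to 0.992 over genes, which are not independent of each other. Taken as whole lists, the markers of the libraries labelled LNCaP went against that label. In these libraries 11 luminal prostate markers summed to 1033 to 1109 CPM with R1881, against 4423 to 4489 CPM in C4-2. The 12 epithelial markers summed to 251 to 253 CPM against 2482 to 2646 CPM. Single markers could go the other way, as the luminal marker KLK3 did with 376 CPM against 217 CPM in C4-2. Of 12 mesenchymal markers, 9 reached 1 CPM in the libraries labelled LNCaP with R1881 and 4 did in C4-2 with R1881. Vimentin (VIM) was at 687 and 2.45 CPM, while COL1A1 went the other way, at 4.45 and 50.2 CPM. Of 15 neuronal and neuroendocrine markers, 9 and 3 reached 1 CPM, with the neurofilament gene NEFL at 136 and 0 CPM. Of 6 leukocyte markers, 1 and 0 reached 1 CPM. Every comparison with these libraries carries this difference, and the part of cell identity in the tubulin values was not tested. In addition, the column header of combination replicate 1 of the cells labelled LNCaP names namoline and not TCE-5002. Member calls in the combination comparisons that use it are therefore also given without it. Gene lists, sums and shares are given with it only.

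Alpha and beta tubulin pair into a heterodimer that polymerises end to end into microtubules, the filaments of the mitotic spindle, the cilium and intracellular transport. The isotypes are encoded by separate genes, and many of their products differ mostly in the part encoded by the last codons. This part forms the acidic tail on the microtubule surface and is changed by enzymes after translation. Cells also control the amount of tubulin through its mRNA. When free tubulin heterodimer is in excess, TTC5 recognises the first amino acids of tubulin emerging from the ribosome and, with SCAPER and the CCR4-NOT deadenylase, brings about decay of that mRNA.

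The starts of the coding sequences are shown because they encode the peptide that TTC5 recognises. The 30 first coding bases are from GENCODE transcripts of GRCh38, spliced and 5′ to 3′, with the 4 first codons in capitals. The last codon in capitals is ATC in all 6 beta genes and TGC in all 4 alpha genes.
TUBB: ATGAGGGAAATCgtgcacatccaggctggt
TUBB2A: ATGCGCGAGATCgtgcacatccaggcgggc
TUBA1B: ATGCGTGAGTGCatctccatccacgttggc
TUBA4A: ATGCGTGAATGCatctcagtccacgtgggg

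TUBB spans 30720201 to 30725426 of chromosome 6 (plus strand), TUBB4B 137241213 to 137243707 of chromosome 9 (plus strand), TUBA1B 49127782 to 49131397 of chromosome 12 (minus strand) and TUBA4A 219249711 to 219278170 of chromosome 2 (minus strand) in the GRCh38 annotation. The ends of the coding sequences are shown because they set most of the isotypes apart. TUBA1A and TUBA1B have the same last 60 coding bases, and those of TUBB2A and TUBB2B differ only in the last codon and the stop codon. Each run holds the last 60 coding bases within 1 exon, with the last codon and the stop codon in capitals. TUBB lies at chr6:30724338-30724397 (plus strand), TUBB4B at chr9:137243497-137243556 (plus strand) and TUBA4A at chr2:219250352-219250411 (minus strand) of GRCh38.
TUBB: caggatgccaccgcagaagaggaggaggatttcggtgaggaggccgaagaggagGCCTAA
TUBB4B: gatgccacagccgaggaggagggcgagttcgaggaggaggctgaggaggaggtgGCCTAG
TUBA4A: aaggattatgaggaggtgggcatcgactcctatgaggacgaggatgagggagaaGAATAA

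TUBA4A does not end on a tyrosine codon, so its product is made without the terminal tyrosine that tubulin carboxypeptidases remove from other alpha tubulins. Over the whole coding sequence TUBA1A and TUBA1B were identical at 97.2% of aligned bases and TUBB2A and TUBB2B at 98.1%, while TUBB and TUBB4B were identical at 84.4% and TUBA1B and TUBA4A at 85.7%.

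Sequence sharing bears on the counts, because fragments that matched several genes were not counted. Of all stretches of 150 bases in the transcripts of a gene, 41.4% were also found in another gene for TUBB2A, 37.3% for TUBB2B, 27.5% for TUBB3 and 23.0% for TUBA1B, against 0.0% for TUBB4B and 12.9% for TUBB. TUBB2A shared its stretches with TUBB2B above all, so the split between these copies is uncertain. Reads were counted without strand, and reads of genes that overlap on opposite strands could not be told apart. TUBA4A shares 15.4% of its exon bases with STK16 and 2.7% with TUBA4B, TUBB6 20.3% with AFG3L2, and TUBA1A and TUBA1C overlap each other over 490 bases.

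In C4-2 cells with R1881 alone, TUBB4B and TUBB carried nearly all beta tubulin counts. Levels between genes are compared per kilobase of exon length, as normalised read count (CPM, scaled to library size) per kilobase, mean ± SD of 2 libraries. TUBB4B, a broadly expressed isotype that also builds ciliary microtubules, stood at 73.7 ± 0.00256 CPM per kilobase and TUBB, the beta tubulin of most dividing cells, at 55.6 ± 0.587. The main alpha gene TUBA1B followed at 21.8 ± 1.52 and its neighbour TUBA1C at 19.4 ± 0.682. TUBA4A stood at 8.32 ± 1.79 CPM per kilobase, and TUBB2A at 1.80 ± 0.325, TUBB6 at 1.1 ± 0.235 and TUBA1A at 0.267 ± 0.0287. The libraries of each gene down to TUBA1A lay apart from those of the next gene in this order. TUBB3 and TUBB2B were at the bottom with 8 and 13 counts and with 2 and 1 counts per library.

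The cells labelled LNCaP had another order with R1881 alone. TUBB4B at 362 ± 4.13 CPM per kilobase, TUBB at 237 ± 13.9 and TUBA1B at 61.7 ± 9.09 again led. TUBB6 at 21.6 ± 1.33, TUBA1C at 16.7 ± 2.31, TUBA1A at 14.2 ± 0.983, TUBB2B at 12.7 ± 1.24 and TUBB2A at 11.9 ± 0.585 came next, and the libraries of TUBA1A overlapped those of TUBB2B, as TUBB2B overlapped TUBB2A. TUBA4A was near the bottom at 0.712 ± 0.139 CPM per kilobase. Leaving out the exon bases shared with other gene models kept the rank of every member in both R1881 groups.

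The baseline comparison asked which tubulin levels differed between the lines with R1881 alone. It shares its 2 C4-2 R1881 libraries with the comparisons on which the genes were picked. TUBB2B passed the filter in this fit only through the libraries labelled LNCaP, and is left out of the counts. Of the other 9 members, 8 were past an adjusted p-value of 0.05 by edgeR's quasi-likelihood test, against 76.8% of all 19763 genes tested. Of these, 6 were lower in C4-2, as 39% of genes were, and 2 higher, as 37.8% were. Past 2-fold as well were 6 lower members (26.2% of genes) and 1 higher member (24.3% of genes), 7 in all against 50.5%. TUBB6, a beta isotype of low level in most tissues, was at 5.20 and 3.84 CPM in C4-2 and at 85.0 and 92.8 CPM in the cells labelled LNCaP, a log2 difference of -4.24 ± 0.14 (SE, adjusted p = 2.60e-18). TUBA1A, the main alpha tubulin of developing neurons, was at 0.984 and 0.845 CPM against 46.2 and 51.0 CPM, a log2 difference of -5.68 ± 0.18 (adjusted p = 9.70e-19). The groups lay far apart for both genes. TUBB4B at 156 and 156 CPM against 758 and 770 CPM differed by -2.27 ± 0.09 on the log2 scale, and TUBB at 185 and 188 CPM against 762 and 828 CPM by -2.06 ± 0.09. TUBB2A differed by -2.71 ± 0.18 and TUBA1B by -1.47 ± 0.10. The median log2 difference of these 9 members was -2.06, beside 0.00 over all genes tested.

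TUBA4A went the other way. It was at 28.8 and 39.1 CPM in C4-2 and at 3.31 and 2.50 CPM in the cells labelled LNCaP, a log2 difference of 3.56 ± 0.21 (edgeR adjusted p = 1.35e-13). The lowest C4-2 library lay above the highest library labelled LNCaP. TUBA1C was also called higher in C4-2, by 0.24 ± 0.10 on the log2 scale (adjusted p = 0.0246), with 92.2 and 87.7 CPM against 70.0 and 85.1 CPM. Its groups were close, and the adjusted p was 0.52 without R1881 replicate 1 of the cells labelled LNCaP 0.165 without C4-2 R1881 replicate 1, 0.117 with DESeq2 and 0.0748 with DESeq2 size factors. TUBB2B had 639 and 569 counts in the libraries labelled LNCaP against 2 and 1 in C4-2. The ratio of its summed counts, scaled to library size, was 340 with a 95% exact interval of 116 to 1653, which covers counting error only. TUBB3 did not pass, with 0.375 and 0.845 CPM against 1.16 and 0.683 CPM.

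**Figure D1:**
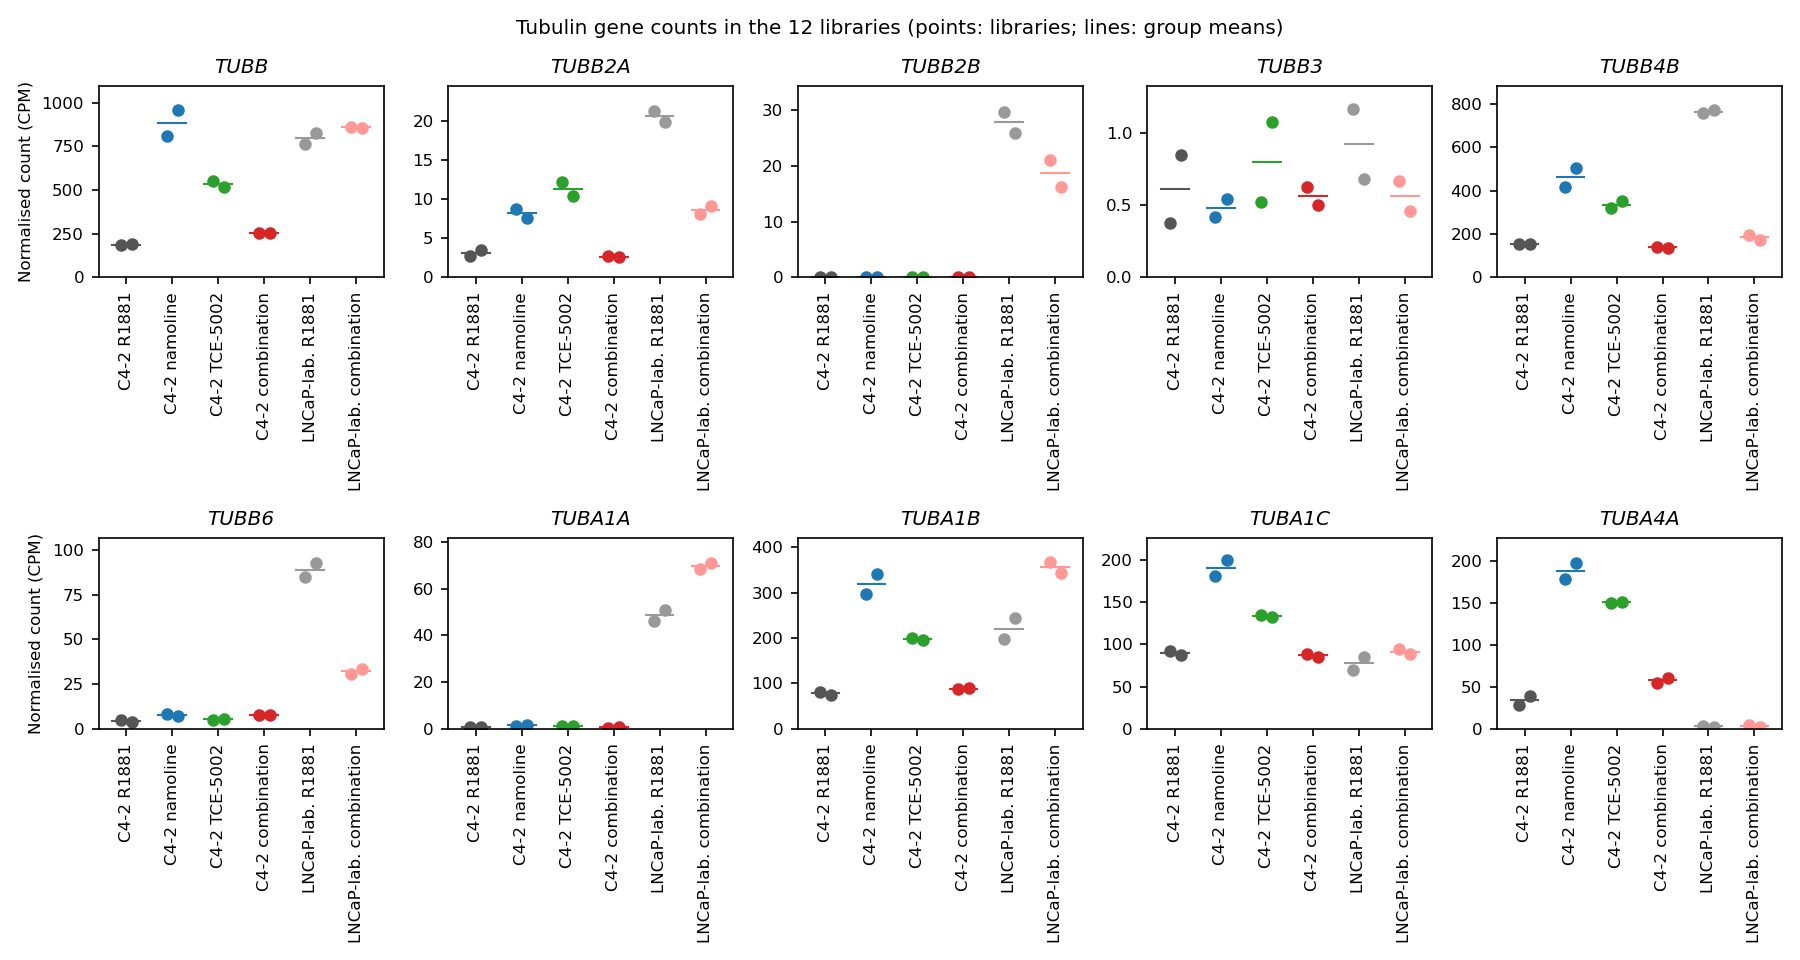
Normalised counts (CPM, linear axis starting at 0, its own range for each gene) of the 10 tubulin genes in the 12 libraries; points are libraries and lines are means of 2. TUBB, TUBB4B, TUBA1B, TUBA1C and TUBA4A are higher with either single inhibitor than with R1881 alone or the combination in C4-2, and TUBB2B is near 0 in C4-2 (5 counts over 8 libraries).

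Each single inhibitor went with higher counts of most tubulin genes in C4-2 cells. TUBB was at 185 and 188 CPM with R1881, 809 and 956 CPM with namoline and 554 and 517 CPM with TCE-5002. These differences were 2.23 ± 0.12 and 1.52 ± 0.11 on the log2 scale (SE), and the 3 groups did not overlap. TUBB4B was at 156 and 156, 418 and 505, and 318 and 353 CPM, with log2 differences of 1.55 ± 0.12 and 1.11 ± 0.12. TUBB2A, a minor beta isotype outside neurons, was at 2.72 and 3.51, 8.76 and 7.56, and 12.2 and 10.3 CPM, log2 differences of 1.39 ± 0.21 and 1.87 ± 0.21. It was the 1 member of 9 with both TCE-5002 libraries above both namoline libraries, where 25.9% of 17702 genes had them so. The reverse order was seen for 7 members and for 27.3% of genes, and these counts carry no test. TUBB6 was at 5.20 and 3.84, 8.53 and 7.32, and 5.03 and 5.47 CPM, and its TCE-5002 libraries overlapped those of R1881.

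Among the alpha genes, TUBA4A was at 28.8 and 39.1 CPM with R1881, 179 and 198 CPM with namoline and 150 and 151 CPM with TCE-5002. Its log2 differences were 2.46 ± 0.14 with namoline and 2.16 ± 0.14 with TCE-5002, and no library of either inhibitor reached down to an R1881 library. TUBA1B was at 81.7 and 74.1, 298 and 342, and 201 and 195 CPM, log2 differences of 2.02 ± 0.11 and 1.35 ± 0.11. TUBA1C was at 92.2 and 87.7, 181 and 199, and 134 and 132 CPM, log2 differences of 1.06 ± 0.11 and 0.56 ± 0.11. The R1881 replicates of TUBA4A stood apart more than those of TUBA1B and TUBA1C. TUBA1A was between 0.845 and 1.62 CPM in these 6 libraries.

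Of the 9 members that passed the filter in C4-2, 6 were at least 2-fold higher with namoline, where 6.47% of the 17702 genes were, and 0 were 2-fold lower, where 9.66% were (16.1% in either direction). With TCE-5002, 5 were 2-fold higher, where 6.37% of genes were, and 0 lower, where 9.34% were (15.7% in either direction). The genes were chosen on these comparisons, which also share their R1881 libraries, so nothing is read from these counts. On the log2 scale, where 2-fold is 1, the members nearest below that mark were TUBB6 with namoline (0.78 ± 0.21) and TUBA1C with TCE-5002 (0.56 ± 0.11), and the nearest above it TUBA1C with namoline (1.06 ± 0.11) and TUBB4B with TCE-5002 (1.11 ± 0.12).

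**Figure D2:**
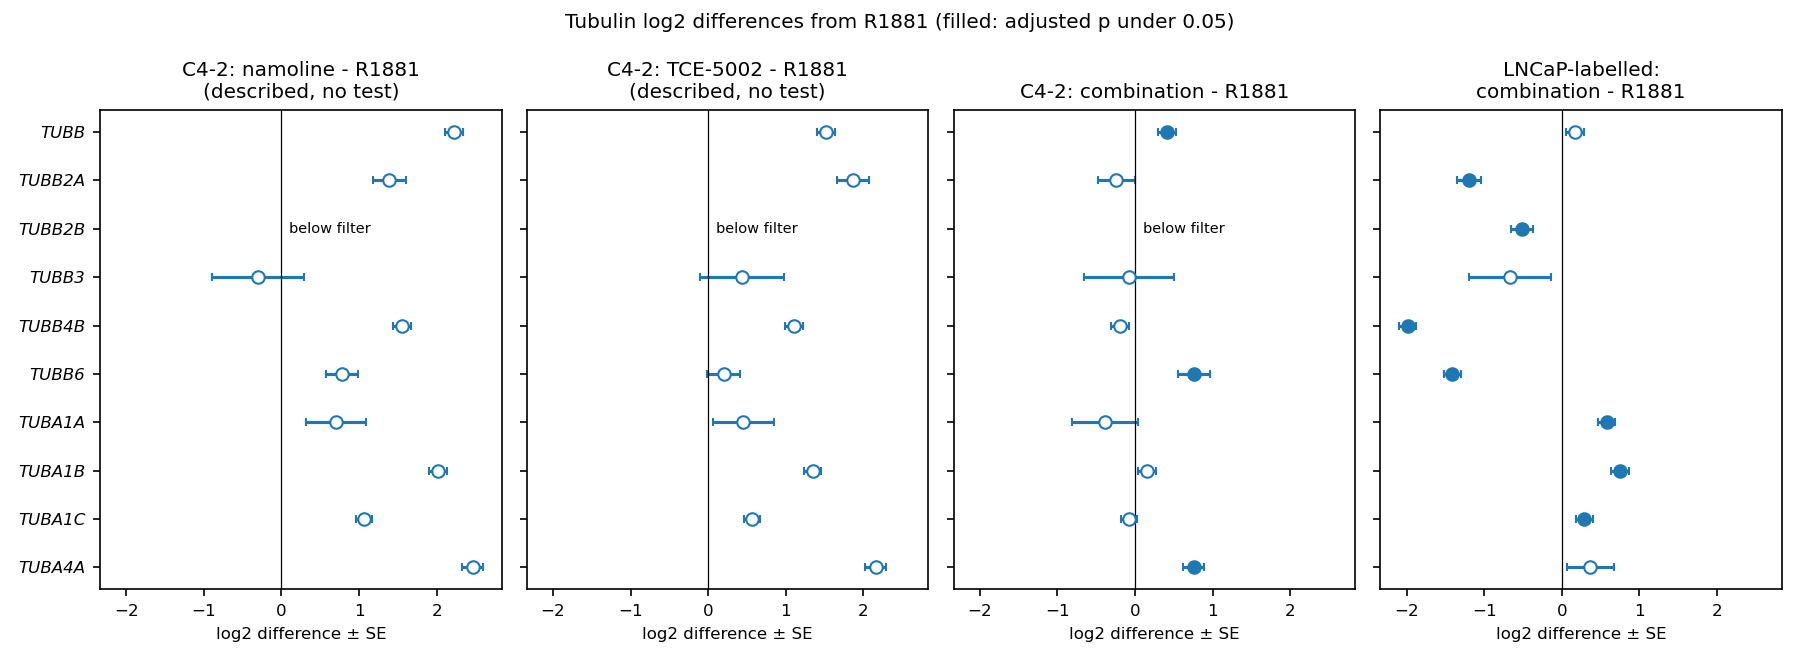
Log2 difference from R1881 (x axis, ± SE) for each tubulin gene, in C4-2 with namoline, TCE-5002 or the combination and in the cells labelled LNCaP with the combination; filled points passed an adjusted p of 0.05 by edgeR, and the namoline and TCE-5002 panels carry no test. In C4-2 the combination points lie near 0, between -0.38 and 0.76, and in the cells labelled LNCaP TUBB4B is at -1.99.

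With both inhibitors, most tubulin counts of C4-2 were near those with R1881 alone. This comparison asked what the combination did to tubulin levels, and it shares its 2 R1881 libraries with the comparisons on which the genes were picked. Of the 9 members tested, 3 rose and 0 fell at an adjusted p under 0.05 by edgeR, where 24.8% of 17702 genes rose and 25.6% fell (50.3% in all). Past 2-fold as well were 0 members, where 21.7% of genes were, 8.87% upward and 12.8% downward. TUBA4A rose from 28.8 and 39.1 CPM to 55.0 and 61.1 CPM, by 0.76 ± 0.14 on the log2 scale (adjusted p = 0.000395). Its groups did not overlap. STK16, which overlaps TUBA4A on the opposite strand, had 608 and 437 raw counts with R1881 and 873 and 861 with the combination. With the single inhibitors STK16 had 577 to 625 raw counts. The part of STK16 reads in the TUBA4A values was not tested. TUBB6 rose from 5.20 and 3.84 to 7.78 and 8.02 CPM, by 0.76 ± 0.21 (adjusted p = 0.0068). TUBB rose from 185 and 188 to 253 and 253 CPM, by 0.41 ± 0.11 (adjusted p = 0.00709).

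TUBB4B had 140 and 136 CPM with the combination, a log2 difference of -0.20 ± 0.12 (edgeR adjusted p = 0.177). It was called lower in the edgeR fit on only the 4 libraries compared (-0.20 ± 0.07, adjusted p = 0.011). TUBA1B had 87.9 and 88.9 CPM (0.16 ± 0.11, adjusted p = 0.265) and TUBA1C 88.8 and 84.8 CPM (-0.08 ± 0.11, adjusted p = 0.575). The TUBA1C libraries overlapped those with R1881 alone. TUBB2A had 2.67 and 2.63 CPM (-0.24 ± 0.24) and TUBA1A 0.568 and 0.877 CPM (-0.38 ± 0.43). The median over the 9 members was -0.07 and over all genes tested -0.03. TUBB was not past the threshold once any 1 of the 4 libraries compared was left out, with adjusted p-values of 0.0508 (combination replicate 1), 0.055 (combination replicate 2), 0.063 (R1881 replicate 2) and 0.0689 (R1881 replicate 1). TUBB6 had an adjusted p of 0.0933 without R1881 replicate 2, which left TUBA4A as the 1 member called.

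The combination libraries of C4-2 lay below all 4 single-inhibitor libraries for 7 of the 9 members, against 31.3% of 17702 genes. For these 7 genes, TUBB, TUBB2A, TUBB4B, TUBA1A, TUBA1B, TUBA1C and TUBA4A, the single-inhibitor libraries also lay above both R1881 libraries, a pattern shown by 14.3% of genes. No member had its combination libraries above all single-inhibitor libraries, as 31.5% of genes did. The picking of the genes on the single inhibitors favours these counts, which carry no test. TUBA4A shows the size of the difference, with 55.0 and 61.1 CPM in the combination against 150 to 198 CPM in the single-inhibitor libraries. TUBB6 was the exception among genes over 1 CPM, with 7.78 and 8.02 CPM in the combination beside 8.53 and 7.32 CPM with namoline.

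With the combination in the cells labelled LNCaP, the beta genes that passed the test fell and the alpha genes that passed it rose. These 4 libraries were not used in picking the genes. Of the 10 members, 7 were past an adjusted p of 0.05 by edgeR, where 56.2% of 17565 genes were. The beta genes TUBB2A, TUBB2B, TUBB4B and TUBB6 fell (4 of 10, against 28.2% of genes) and the alpha genes TUBA1A, TUBA1B and TUBA1C rose (3 of 10, against 28% of genes), TUBA1C near the threshold. Past 2-fold as well were 3 members, all lower, where 18.7% of genes were, 11.3% downward and 7.44% upward. With a GC correction 2 members were past it, and TUBB2A was at -0.89 on the log2 scale. TUBB4B fell from 758 and 770 to 197 and 173 CPM, a log2 difference of -1.99 ± 0.11 (adjusted p = 1.78e-15). TUBB6 fell from 85.0 and 92.8 to 30.5 and 33.7 CPM, a log2 difference of -1.41 ± 0.11 (adjusted p = 4.57e-12). TUBB2A fell from 21.3 and 19.9 to 8.12 and 9.09 CPM, a log2 difference of -1.19 ± 0.16 (adjusted p = 9.63e-08). The groups did not overlap for any of these genes.

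TUBB2B, a beta isotype of neurons, fell from 29.8 and 25.9 to 21.2 and 16.3 CPM, a log2 difference of -0.52 ± 0.14 (edgeR adjusted p = 0.00246). TUBB, the leading beta gene beside TUBB4B, was at 762 and 828 CPM with R1881 and 862 and 855 CPM with the combination, a log2 difference of 0.17 ± 0.11 that did not pass (adjusted p = 0.206). TUBB passed after correction for GC content (0.26 ± 0.09, adjusted p = 0.0243). TUBB3 was at 1.16 and 0.683 CPM and at 0.667 and 0.457 CPM and did not pass (adjusted p = 0.29).

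Among the alpha genes of the same cells, TUBA1B rose from 197 and 243 to 368 and 344 CPM, by 0.75 ± 0.11 on the log2 scale (edgeR adjusted p = 7.64e-07). TUBA1A rose from 46.2 and 51.0 to 68.6 and 71.0 CPM, by 0.58 ± 0.11 (adjusted p = 3.80e-05). TUBA1C rose from 70.0 and 85.1 to 94.4 and 87.9 CPM, by 0.29 ± 0.11 (adjusted p = 0.0235), a call that was lost with DESeq2 (adjusted p = 0.0527) and with no filter on low counts (adjusted p = 0.0619). The groups did not overlap for these genes, though the TUBA1C groups came close. TUBA4A was at 3.31 and 2.50 CPM and at 4.97 and 2.34 CPM, and its groups overlapped (0.37 ± 0.31, adjusted p = 0.316).

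Without combination replicate 1, whose header names namoline only, the log2 differences were -2.09 for TUBB4B, -1.34 for TUBB6, -1.12 for TUBB2A, -0.72 for TUBB2B, 0.70 for TUBA1B and 0.60 for TUBA1A, all still past the threshold, and 0.24 for TUBA1C, which was not (edgeR adjusted p = 0.0661). Without R1881 replicate 1, TUBA1C (0.15, adjusted p = 0.446) and TUBB2B (-0.42, adjusted p = 0.0618) were not past it. TUBA4A was at 0.83 (adjusted p = 0.0181) without combination replicate 2 and at -0.26 without combination replicate 1, so its direction rests on 1 library.

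The difference between the lines in the combination effect was tested in 1 fit of the 8 libraries with R1881 or the combination. The C4-2 R1881 libraries in it were also used in picking the genes. For 6 of the 9 members other than TUBB2B the effect in C4-2 minus the effect in the cells labelled LNCaP was past an adjusted p of 0.05 by edgeR, against 47.6% of 19763 genes, 21.7% positive and 25.9% negative. Past 2-fold as well were 3 members, against 25.3% of genes (11.4% positive, 13.9% negative), and 2 under DESeq2 size factors or a GC correction. It was positive for TUBB6 (2.11 ± 0.20 on the log2 scale, adjusted p = 8.39e-09), TUBB4B (1.74 ± 0.12, adjusted p = 6.44e-11) and TUBB2A (0.91 ± 0.28, adjusted p = 0.00933), 3 of the 4 beta genes that fell in the cells labelled LNCaP. It was negative for TUBA1B (-0.65 ± 0.14, adjusted p = 0.000377), TUBA1C (-0.42 ± 0.14, adjusted p = 0.0133) and TUBA1A (-1.02 ± 0.37, adjusted p = 0.0275), the alpha genes that rose there. TUBB2B, the other beta gene that fell there, was not called (-3.22 ± 1.89, adjusted p = 0.171), with 3 counts over the C4-2 libraries of this fit. TUBA1A had 10 to 21 counts per library in the C4-2 groups compared. TUBB (0.19 ± 0.12, adjusted p = 0.178) and TUBA4A (0.35 ± 0.32, adjusted p = 0.381) were not past the threshold. TUBB was past it (0.36, adjusted p = 0.0188) without R1881 replicate 1 of the cells labelled LNCaP. The median of the 9 members was 0.35 and that of all genes tested -0.10. Without C4-2 R1881 replicate 1 the count was 3, with TUBB2A (adjusted p = 0.0747), TUBA1A (adjusted p = 0.18) and TUBA1C (adjusted p = 0.0628) no longer called. TUBA1A was also not called without R1881 replicate 1 of the cells labelled LNCaP (adjusted p = 0.0822) or C4-2 combination replicate 1 (adjusted p = 0.2005), nor TUBA1C without R1881 replicate 1 of the cells labelled LNCaP (adjusted p = 0.32) or C4-2 combination replicate 2 (adjusted p = 0.0675). With DESeq2 their adjusted p-values were 0.0542 and 0.0565, and with no filter that of TUBA1A was 0.0632 by edgeR. Without the library whose header names namoline only, TUBA4A came past the threshold (0.94 ± 0.30, adjusted p = 0.00782) and the 6 members named stayed past it.

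**Figure D3:**
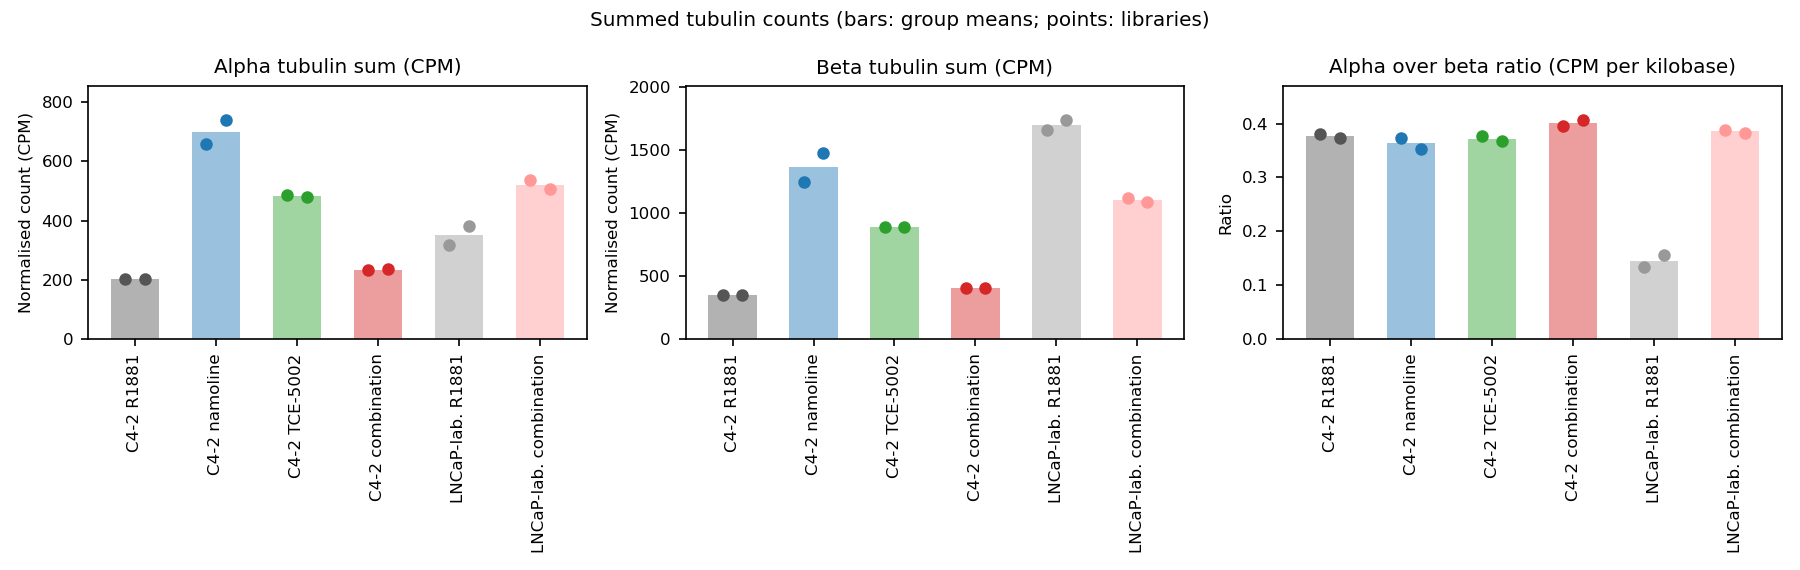
Summed counts of the 4 alpha genes (left, CPM) and the 6 beta genes (middle, CPM) and the alpha over beta ratio per kilobase of exon length (right) in each library, with bars for means of 2; all axes start at 0. In C4-2 both sums are higher with each single inhibitor while the ratio stays between 0.354 and 0.407, and in the cells labelled LNCaP the ratio is 0.145 with R1881 and 0.385 with the combination.

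Summed over the genes, alpha tubulin stood at 203 ± 1.40 CPM in C4-2 with R1881, 699 ± 57.3 with namoline, 483 ± 4.66 with TCE-5002 and 234 ± 2.32 with the combination. Beta tubulin stood at 351 ± 1.88, 1361 ± 164, 888 ± 2.05 and 402 ± 2.31 CPM (SD, 2 libraries each). With namoline the alpha sum was 3.45 times and the beta sum 3.88 times that with R1881, and with TCE-5002 2.38 and 2.53 times. The sums thus moved by like factors. The alpha over beta ratio, taken per kilobase, was 0.376 ± 0.00546 with R1881, 0.364 ± 0.0141 with namoline, 0.372 ± 0.00752 with TCE-5002 and 0.401 ± 0.00807 with the combination. No library of these 8 lay outside 0.354 to 0.407.

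The sums moved apart in the cells labelled LNCaP. Alpha tubulin was at 350 ± 46.0 CPM with R1881 and 521 ± 22.0 CPM with the combination, 1.49 times as much. Beta tubulin was at 1697 ± 56.9 and 1103 ± 23.0 CPM, 0.65 times as much. The ratio per kilobase went from 0.134 and 0.155 in the R1881 libraries to 0.389 and 0.382 in the combination libraries. With the combination it therefore lay within the C4-2 range, and with R1881 alone it lay below it. Without the shared exon bases the group means were 0.190 with R1881 and 0.494 with the combination. With 2 libraries against 2, an exact permutation test of such a ratio could not reach an unadjusted p of 0.05, and none was run.

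**Figure D4:**
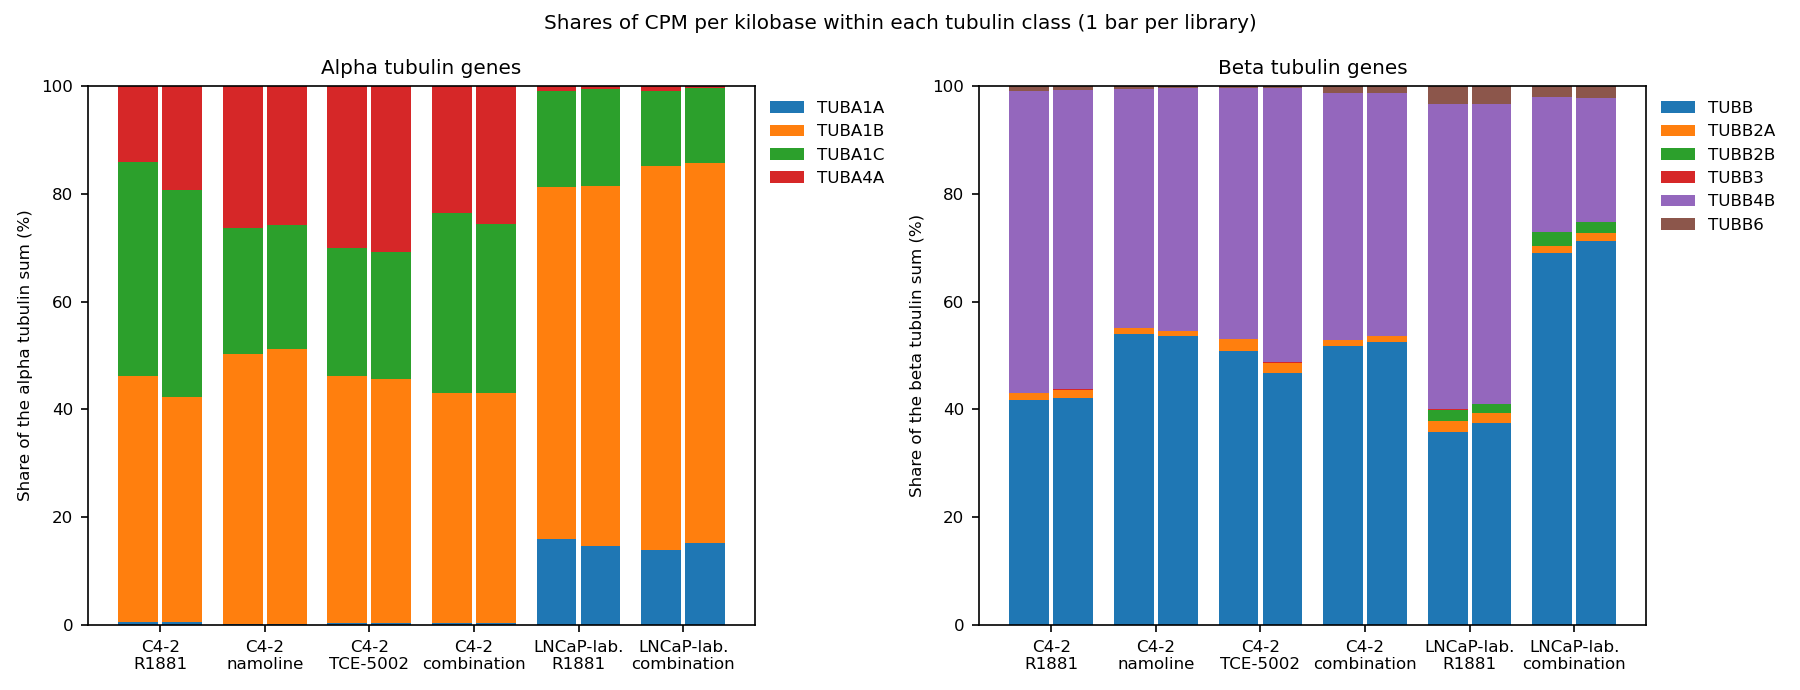
Share of each gene (%) in the alpha (left) and beta (right) tubulin sum, in CPM per kilobase of exon length, 1 stacked bar per library. TUBB4B takes 56.1% of beta tubulin in the cells labelled LNCaP with R1881 and 24% with the combination, and TUBA4A takes 16.7% of alpha tubulin in C4-2 with R1881 and 30.4% with TCE-5002.

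The makeup of the sums differed between the groups. TUBA4A made up 14.1% and 19.4% of alpha tubulin per kilobase in C4-2 with R1881, 26.3% and 25.8% with namoline, 30.1% and 30.7% with TCE-5002 and 23.5% and 25.6% with the combination. TUBA1C went the other way, with 39.0 ± 1.02% with R1881, 23.2 ± 0.366% with namoline, 23.7 ± 0.0345% with TCE-5002 and 32.4 ± 1.44% with the combination. TUBA1B had 42.7% to 50.5% over the C4-2 group means. Of beta tubulin, TUBB made up 42 ± 0.207% with R1881, 53.8 ± 0.203% with namoline, 48.8 ± 2.86% with TCE-5002 and 52.2 ± 0.519% with the combination, and TUBB4B most of the rest. TUBB was below TUBB4B in both R1881 libraries and above it in both combination libraries.

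TUBB4B of the cells labelled LNCaP made up 56.7% and 55.5% of beta tubulin with R1881 and 25.1% and 22.9% with the combination. TUBB had 36.7 ± 1.16% and 70.1 ± 1.55%, although its own counts had not passed the test. TUBB6 had 3.34 ± 0.116% and 2.14 ± 0.213%. Among the alpha genes TUBA1B had 66.0 ± 1.08% and 70.8 ± 0.512%, TUBA1A 15.3 ± 0.951% and 14.5 ± 0.939%, and TUBA4A 0.780 ± 0.251% and 0.631 ± 0.299%.

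The copies and low genes were described with their neighbours. TUBB2A and TUBB2B summed to 3.19 ± 0.541 CPM in C4-2 with R1881, 8.19 ± 0.893 with namoline, 11.3 ± 1.33 with TCE-5002 and 2.65 ± 0.0282 with the combination. In the cells labelled LNCaP the sum was 48.4 ± 3.73 CPM with R1881 and 27.3 ± 2.75 CPM with the combination. TUBB2B had 5 counts over all 8 C4-2 libraries and was below the filter there. TUBB3, a beta isotype of neurons that has also been followed in taxane-resistant tumours, stayed between 0.375 and 1.16 CPM in all 12 libraries. It shares 35.8% of its exon bases with a readthrough model that had 0 counts in every library. Together with that model and MC1R, which is not a tubulin gene, the level was 4.44 to 14.6 CPM over the group means. TUBB3 alone was at 0.477 to 0.924 CPM in the group means, so most of that level came from MC1R.

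Other tubulin genes and the machinery around tubulin were taken from lists. Over all genes tested, 24.8% rose and 25.6% fell with the combination in C4-2, and 28% rose and 28.2% fell in the cells labelled LNCaP. Of the 13 other alpha, beta, gamma, delta and epsilon tubulin genes, 9 passed the filter in C4-2, and with the combination 3 rose and 2 fell, near the shares over all genes. TUBG2, a gamma tubulin of the nucleation complex, rose from 35.5 to 102 CPM (group means, log2 difference 1.49 ± 0.13, edgeR adjusted p = 6.58e-07). TUBA3E, an alpha tubulin gene, fell from 6.13 to 2.40 CPM (-1.36 ± 0.21, adjusted p = 9.67e-05), and was at 17.2 CPM with namoline and 16.3 CPM with TCE-5002. In the cells labelled LNCaP 1 of 6 rose and 1 fell. TUBE1, the epsilon tubulin of centrioles, rose there from 40.1 to 70.6 CPM (0.88 ± 0.11, adjusted p = 8.17e-08), and the beta gene TUBB4A fell from 15.6 to 8.56 CPM.

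Of the 11 genes of the gamma tubulin complex, which nucleates microtubules, 5 rose and 0 fell in C4-2 with the combination, and 5 rose and 3 fell in the cells labelled LNCaP (over all genes 24.8% and 25.6%, and 28% and 28.2%). The leading genes in C4-2 were TUBG2 and TUBG1, which also stand in the list of other tubulins. TUBG1 rose from 45 to 102 CPM (log2 difference 1.16 ± 0.14, edgeR adjusted p = 1.1e-05), and its effect in C4-2 exceeded that in the cells labelled LNCaP by 1.24 ± 0.14 (adjusted p = 1.07e-07). It was at 132 CPM with namoline and 88.7 CPM with TCE-5002. For the cells labelled LNCaP the leading ones were TUBGCP5, which rose by 0.81 ± 0.12, and MZT2B, which fell (-0.79 ± 0.12).

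Prefoldin and the CCT chaperonin fold newly made tubulin. Of their 14 genes, 7 rose and 0 fell in C4-2 with the combination, where 24.8% and 25.6% of all genes did, with a median log2 difference of 0.30 beside -0.03 over all genes tested. In the cells labelled LNCaP 13 rose and 0 fell, where 28% and 28.2% of all genes did, with a median of 0.84 beside 0.00. CCT8 rose there from 211 to 441 CPM (1.12 ± 0.11, edgeR adjusted p = 1.74e-10) and PFDN6 from 32.0 to 80.3 CPM (1.39 ± 0.12, adjusted p = 1.14e-11). The difference between the lines passed for 10 of the 14 genes, each with a negative difference, C4-2 minus LNCaP-labelled, where 25.9% of all genes had a negative and 47.6% any called difference. In C4-2 PFDN2 rose from 54.5 to 124 CPM and CCT4 from 131 to 247 CPM. Of the 7 folding cofactors and related genes measured, which assemble the heterodimer, 1 rose in C4-2 (24.8% of all genes) and 4 rose and 1 fell in the cells labelled LNCaP (28% and 28.2%). TBCB rose in both, by 0.36 ± 0.12 and 1.03 ± 0.11, and TBCC fell in the cells labelled LNCaP (-1.04 ± 0.14).

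Of the 12 genes of tubulin mRNA autoregulation, 3 rose and 1 fell in C4-2 with the combination (24.8% and 25.6% of all genes) and 5 rose and 1 fell in the cells labelled LNCaP (28% and 28.2%). SCAPER, the adaptor between TTC5 and the deadenylase, rose in the cells labelled LNCaP from 31.1 to 57.1 CPM (0.94 ± 0.12, edgeR adjusted p = 4.24e-08), and CNOT6, a catalytic subunit, fell from 194 to 126 CPM. In C4-2 CNOT3 rose from 45.4 to 72.3 CPM. TTC5 itself was at 18.2, 21.3, 23.3 and 14.2 CPM in C4-2 with R1881, namoline, TCE-5002 and the combination, and its combination effect differed between the lines by -0.83 ± 0.17.

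Of the 20 genes that modify tubulin after translation, 19 were tested, and 7 rose and 6 fell in C4-2 with the combination (24.8% and 25.6% of all genes) while 8 rose and 2 fell in the cells labelled LNCaP (28% and 28.2%). VASH2, a carboxypeptidase that removes the terminal tyrosine which TUBA4A lacks, fell in C4-2 from 7.36 to 2.66 CPM (-1.49 ± 0.22, edgeR adjusted p = 6.64e-05). The glutamylase gene TTLL6 fell in C4-2 from 4.36 to 1.65 CPM and rose in the cells labelled LNCaP from 0.645 to 1.44 CPM (1.22 ± 0.46, adjusted p = 0.0248). Of 32 microtubule-associated and severing genes, 8 rose and 13 fell in C4-2 and 13 rose and 8 fell in the cells labelled LNCaP, beside the same shares over all genes. MAP2, which bundles microtubules in neurites, rose in C4-2 from 7.64 to 32.4 CPM (2.07 ± 0.19), and KIF2C, a depolymerising kinesin of mitosis, fell from 45.8 to 9.70 CPM (-2.26 ± 0.20). MAP1S fell in the cells labelled LNCaP from 66.5 to 20.2 CPM (-1.67 ± 0.15).

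Summed mitosis markers did not follow the summed tubulins across the C4-2 groups. CDK1, the 1 marker higher with TCE-5002 than with R1881, did rise with each single inhibitor. It was at 58.3, 212, 106 and 48.9 CPM with R1881, namoline, TCE-5002 and the combination. The 18 markers summed to 1209 and 1536 CPM in the R1881 libraries, 1260 and 1642 CPM with namoline, 549 and 585 CPM with TCE-5002 and 349 and 471 CPM with the combination. With the combination 17 of 18 fell and 0 rose, where 25.6% and 24.8% of all genes did, led by CENPF, a kinetochore protein, from 218 to 35.5 CPM. Summed tubulin counts were above R1881 in TCE-5002 libraries, where the summed mitosis markers were below it. In the cells labelled LNCaP the sums were 3059 and 3690 CPM with R1881 and 3211 and 3575 CPM with the combination, where 8 rose and 4 fell (28% and 28.2% of all genes). The part of cell division in the tubulin values was not tested.

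Genes with a profile most like TUBB and TUBA4A were taken from 9576 protein-coding genes with a mean of at least 10 CPM in C4-2, by the correlation of log2 levels over the 8 C4-2 libraries. Those most like TUBB were ENTR1 (r = 0.998), DNAJC11 (r = 0.996) and EBP (r = 0.994), with EBP at 31.2, 94.6, 73.8 and 40.6 CPM with R1881, namoline, TCE-5002 and the combination. Those most like TUBA4A were UBL4A (r = 0.991), VPS33B and CDCP1 (r = 0.990 each). Among the members, TUBB correlated with TUBA1B at r = 0.994, TUBA4A at r = 0.973, TUBA1C at r = 0.969 and TUBB4B at r = 0.961, and with TUBB6 at r = 0.415. The libraries fall into 4 treatment groups, so these values describe the groups and carry no p.

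Promoter windows of the members were read from RefSeq (GRCh38.p14), the 250 bases before each annotated start, with 15 windows for the 10 genes. The letters CCAAT, on either strand, were found in 9 of the 15 windows and in 32.0% of 35116 promoters, and GGGCGG in 9 of 15 and in 42.6%. TUBA1C has overlapping windows that hold the same CCAAT, so that site is counted more than once. TTTGAA was found in 3 windows and in 13.3% of promoters. TUBB4B, the member that fell most in the cells labelled LNCaP, has 3 matches to CCAAT, while TUBA4A has 0 and 4 matches to GGGCGG. The TUBB4B window is shown, at chr9:137241037-137241212 on the plus strand, up to the base before the first annotated exon, with CCAAT in capitals.
TUBB4B promoter: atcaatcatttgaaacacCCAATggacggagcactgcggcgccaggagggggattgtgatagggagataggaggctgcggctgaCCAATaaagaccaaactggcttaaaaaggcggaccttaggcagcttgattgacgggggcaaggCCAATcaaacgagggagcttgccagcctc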

How the data were processed

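Polyadenylated RNA of 12 libraries was measured. The authors deposited raw counts of read pairs per gene, made, per the file headers, with featureCounts 1.5.0-p1 against Ensembl 83 annotation of GRCh38 after trimming with Trim Galore and alignment with STAR. No strand option was set, and fragments matching several genes were not counted. Gene coordinates are 1-based. A symbol was found for 41209 of 60675 genes, through the reference table.

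Groups were taken from the library titles, because a protocol field of the labels describes siRNA work. Counts were filtered with filterByExpr, scaled by TMM and tested by the quasi-likelihood method of edgeR 4.0.16 (with limma 3.58.1 under R 4.3.3), adjusted by Benjamini-Hochberg over all genes tested. A call is an adjusted p under 0.05, counted again with at least 2-fold. C4-2 comparisons used 8 C4-2 libraries in 1 fit, the LNCaP-labelled comparison 4 libraries, and the comparisons between the lines the 8 libraries with R1881 or the combination. SE is the absolute log2 difference over the square root of F. CPM uses TMM factors over 12 libraries. With 2 libraries per group, the spread of 1 gene leans on that of all genes, and totals of 14791602 to 20690819 counts set the precision of low genes. The scripts were tested on simulated counts.

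The members, lists and rules were chosen with earlier results of these data known. Genes named were all members, the genes with the largest change among those called in each list and comparison (at most 2), 3 genes most like TUBB and TUBA4A, and genes that overlap a member. The alternatives were DESeq2 size factors, no filter, a GC correction, a block for replicate number, DESeq2 1.42.0, the correction with the block, each library left out, and fits on 4 libraries. Exon length without shared bases was added after seeing the data.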

Additional observations from a re-analysis of the deposited data

Results flagged for a closer look

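For 6 of the 9 members other than TUBB2B the combination effect differed between the lines by a test of that difference (edgeR, adjusted p under 0.05). Over all genes tested, 47.6% of 19763 passed the same test. The calls of TUBA1A and TUBA1C were lost with DESeq2 (adjusted p = 0.0542 and 0.0565), and those of TUBB2A, TUBA1A and TUBA1C depended on single libraries. The effect in C4-2 minus the effect in the cells labelled LNCaP was 2.11 for TUBB6, 1.74 for TUBB4B and 0.91 for TUBB2A, and -1.02 for TUBA1A, -0.65 for TUBA1B and -0.42 for TUBA1C, all on the log2 scale. The luminal, epithelial and mesenchymal marker sums also differ between the lines, and their part in these values was not tested. Groups held 2 libraries, so no group was searched for a library far from the others.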

How the results depend on the processing

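The number of members called in either direction, TUBB2B included, stayed within 1.5 times the reported one under every alternative run that kept all libraries. By direction, members higher in C4-2 at baseline went from 2 to 1 under DESeq2 size factors, no filter, DESeq2 and GC correction with block. Members past 2-fold with the LNCaP-labelled combination went from 3 to 2 under the GC correction. Members past 2-fold with a negative difference between the lines went from 1 to 0 under DESeq2 size factors and the GC correction. The call of that member, TUBA1A, was also lost with no filter (edgeR adjusted p = 0.0632) and with DESeq2 (adjusted p = 0.0542). With 1 library left out, the members called ran from 1 to 3 for the C4-2 combination (1 without R1881 replicate 2), 5 to 8 for the LNCaP-labelled combination, 8 to 9 for the baseline and 3 to 7 for the difference between the lines (3 without C4-2 R1881 replicate 1), and members past 2-fold from 5 to 7 with namoline and from 5 to 6 with TCE-5002. Over all single members and alternatives in the tested comparisons, 490 results kept their call, 27 lost it, 8 gained it and 0 reversed it. TUBA1C lost its call most often, and in the LNCaP-labelled combination it had an adjusted p of 0.0529 with the replicate number as a block, 0.0527 with DESeq2 and 0.0619 with no filter. Its baseline call was also lost by edgeR under DESeq2 size factors (adjusted p = 0.0748) and with no filter (adjusted p = 0.0505). The same call was lost with the GC correction and block (adjusted p = 0.0611) and with DESeq2 (adjusted p = 0.117). The block left the members called at 3, 6, 9 and 6 in the 4 comparisons. The replicate numbers were not shown to pair the libraries, since deviations of same-numbered libraries correlated at r -0.094 to 0.103 over 15 pairs of groups. Replicate differences followed GC content (rho -0.5 to 0.34), and with a GC correction 4 members were past 2-fold with TCE-5002, where TUBB4B was at 0.93. In CPM per kilobase the LNCaP-labelled beta sum was 0.565 times that with R1881, against 0.65 in CPM. The cause of these changes was not tested. Depth limits TUBB3, TUBB2B in C4-2 and TUBA1A in C4-2, with at most 27 counts per library there.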
